A study of Mus musculus with 2 samples.

Results

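The genes described here are 10 secreted proteins of the Wnt pathway in mouse liver: the Wnt ligands Wnt2, Wnt9b, Wnt4 and Wnt5a, the R-spondins Rspo1 and Rspo3, and the extracellular Wnt inhibitors Dkk2, Dkk3, Sfrp1 and Frzb. They were chosen by name, as Wnt, R-spondin and Wnt inhibitor genes, and matched by Ensembl identifier. All 10 were among the 30406 genes listed in both deposited matrices. The values are unique molecular identifiers (UMIs), each of which stands for 1 captured RNA molecule, counted per gene and per cell barcode by droplet single-cell RNA sequencing (10x Genomics). The study compared liver cells of healthy mice with those of mice given carbon tetrachloride (CCl4), a toxin that hepatocytes around the central vein convert into a damaging radical and that scars the liver when given repeatedly. Each condition was 1 library, so no difference between conditions has a replicate check and no test was made. Intervals below are 95% intervals and cover counting error only.

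Both libraries came from Col1a2CreER:Rosa26tdTomato mice, on a C57BL/6 background. In this genotype a drug-inducible Cre driven by the collagen promoter Col1a2 can switch on a red reporter, and it was carried by the healthy mice too. Mice with this genotype entered the study at an age of 8 to 10 weeks, and CCl4 was injected repeatedly over 12 weeks. Tamoxifen was fed during the injury to label Col1a2-traced cells, but whether the mice of these libraries received it, and how many mice each library held, is not given in the sources used here. The study describes the removal of CD45-bearing cells, mostly leukocytes, with magnetic beads after a pronase and collagenase digest and a Nycodenz gradient, whereas the labels speak of whole liver cells. Such a preparation sets which cell types, and how many of each, reach the libraries.

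Wnt ligands are lipid-bearing proteins that act over short distances through Frizzled receptors and their LRP co-receptors to stabilise beta-catenin, or through other co-receptors to change cell shape and movement. R-spondins bind LGR receptors and the ubiquitin ligases Znrf3 and Rnf43, keep Frizzled receptors on the cell surface and so strengthen a Wnt signal, while Dkk proteins, secreted Frizzled-related proteins and Frzb act outside the cell, many of them as inhibitors. In the liver lobule, Wnt ligands and R-spondins made around the central vein are known to maintain the pericentral programme of hepatocytes, such as glutamine synthetase and the drug-metabolising enzymes that activate CCl4.

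Filters kept 5602 cells of the healthy library, with a median depth of 6783.5 UMIs, and 7314 of the CCl4 library, with a median of 11876, and 8 of the kept barcodes occurred in both libraries. Clustering without the 10 genes and without other Wnt pathway genes gave 22 clusters, of which 15 could be named from marker genes. The healthy library was mainly endothelial-like (3545 cells, 63.3%) and cholangiocyte-like (1291 cells, 23.0%), with 236 mesothelial-like, 121 hepatocyte-like, 19 immune-like and 13 mesenchymal-like cells. The CCl4 library was mainly mesenchymal-like (3207 cells, 43.8%), with 956 mesothelial-like, 626 endothelial-like, 379 immune-like, 23 cholangiocyte-like and 3 hepatocyte-like cells and 2120 cells (29.0%) in clusters without a name. Every marker of the endothelial list, 18 of 18, had UMIs in the endothelial-like cells of both libraries, with a summed level of 23851 CPM (the UMIs of a gene summed over the cells of a population per 1000000 UMIs of those cells) in the healthy and 15722 CPM in the CCl4 library. Hepatocyte-like cells were 2.16% of the healthy and 0.0410% of the CCl4 cells. Different clusters held the endothelial-like and the mesothelial-like cells of the 2 libraries, and a cluster that is mostly 1 library may be that library rather than a cell type. The mesenchymal-like class could not be compared with its 13 healthy cells, nor the hepatocyte-like class with its 3 CCl4 cells.

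The main source differed between the signals and between the libraries. In the healthy library Wnt2, Wnt9b and Rspo3 came from endothelial-like cells, Wnt4 from cholangiocyte-like cells and Rspo1 from mesothelial-like cells. In the CCl4 library most UMIs of Rspo3, Dkk3, Sfrp1 and Frzb lay in mesenchymal-like cells, Rspo1 stayed with mesothelial-like cells, and Wnt4 and Wnt5a were spread over several classes. The number of cells of a class in a library is set partly by the preparation, so the shares of UMIs below describe these libraries and the CPM values describe the cells.

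**Figure D1:**
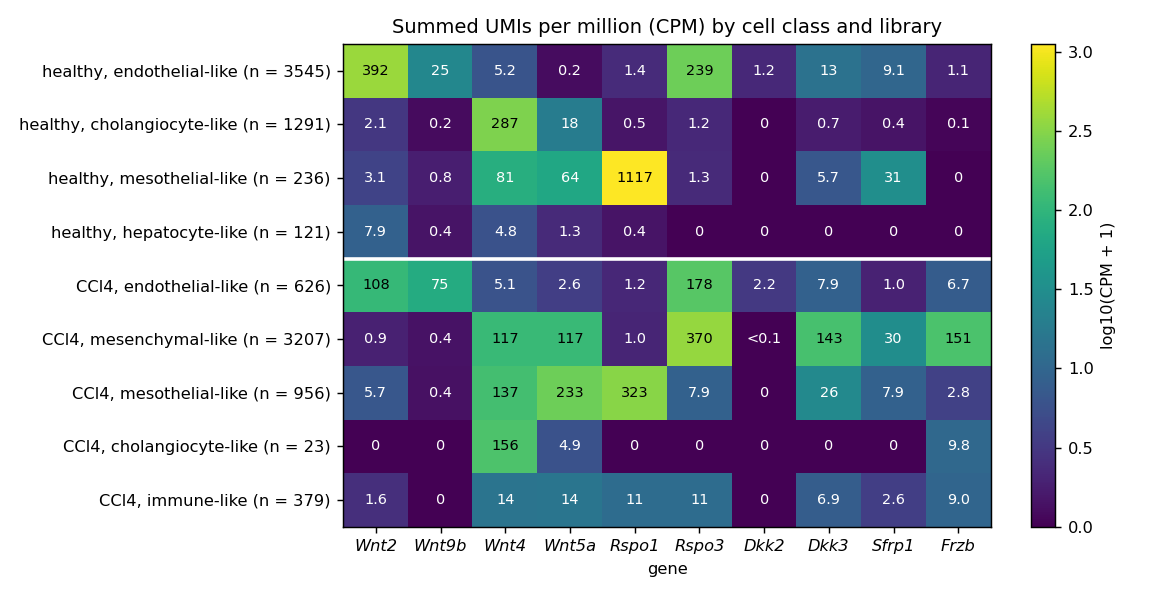
Heat map of the level (CPM, printed in each cell, colour on a log10(CPM + 1) scale) of the 10 genes in the cell classes of each library. Wnt2 reaches 392 CPM in healthy endothelial-like cells, Wnt4 287 CPM in healthy cholangiocyte-like cells, Rspo1 1117 CPM in healthy mesothelial-like cells and Rspo3 370 CPM in CCl4 mesenchymal-like cells.

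Wnt2, a ligand that sinusoidal endothelium is known to supply to hepatocytes, had 7981 UMIs in the healthy library, and 98.7% of them (98.4 to 98.9%) were in endothelial-like cells. Its level there was 392 CPM (383 to 400). The next classes with at least 100 cells were hepatocyte-like cells at 7.90 CPM (4.68 to 12.5), mesothelial-like cells at 3.12 CPM (1.61 to 5.45) and cholangiocyte-like cells at 2.11 CPM (1.49 to 2.90), and the intervals of neighbours in that order overlapped. A Wnt2 UMI was found in 57.3% of endothelial-like cells (median 5899 UMIs) and in 2.63% of cholangiocyte-like cells (median 11619 UMIs), a class not known to make Wnt2 and taken here as the background. After thinning, in which each cell is reduced to 2000 UMIs and shallower cells are left out, the shares were 43.6% and 0.446%. The 19 healthy immune-like cells had 88.6 CPM of Wnt2 and 44.3 CPM of Rspo3, and the source of these UMIs was not tested.

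Wnt2 had 1073 UMIs in the CCl4 library, of which 41.8% (38.8 to 44.8%) were in the endothelial-like cells at 108 CPM (98.1 to 118). Unnamed clusters held 45.3% of them (42.3 to 48.3%). A cluster of 611 cells led by Serpinb2, Enpp2 and Cxcl5 had 20.3 CPM (17.9 to 23.0), and a cluster of 91 cells with markers of both endothelial and mesenchymal cells had 84.7 CPM (72.1 to 98.8). Mesothelial-like cells had 5.75 CPM (4.65 to 7.03) and immune-like cells 1.58 CPM (0.326 to 4.63), intervals that did not overlap, and mesenchymal-like cells had 0.913 CPM (0.655 to 1.24).

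The RefSeq promoters of Wnt2 and Wnt9b are shown because both ligands came mainly from the endothelial-like class in the healthy library. The table used held 6 of the 10 genes. Each line gives the 250 bases before the annotated start (build GRCm38.p6), on the strand of the gene, with capitals for matches on either strand to 3 short motifs. They are GATAA, the core of GATA factor motifs, then GGAAG, a core of ETS factor motifs, and CTTTGA, a core of TCF and LEF factor motifs, and a match on the other strand shows as the reverse complement. No matches overlapped in these stretches. Wnt2 lies at chr6:18030446-18030695 and Wnt9b at chr11:103749822-103750071, both on the minus strand.
Wnt2: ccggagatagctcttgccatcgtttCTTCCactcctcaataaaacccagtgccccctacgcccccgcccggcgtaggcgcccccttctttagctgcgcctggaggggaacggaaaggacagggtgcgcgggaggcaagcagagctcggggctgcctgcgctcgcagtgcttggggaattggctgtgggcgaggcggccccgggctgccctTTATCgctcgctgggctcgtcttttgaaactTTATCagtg
Wnt9b: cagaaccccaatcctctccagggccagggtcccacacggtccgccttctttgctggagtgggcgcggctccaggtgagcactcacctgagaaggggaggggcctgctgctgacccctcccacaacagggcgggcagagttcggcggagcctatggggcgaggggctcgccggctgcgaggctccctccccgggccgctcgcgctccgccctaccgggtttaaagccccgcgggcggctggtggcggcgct
The Wnt2 stretch held 2 matches to GATAA, 40 and 9 bases before the start, and 1 to GGAAG, 225 bases before it, whereas the Wnt9b stretch held none of the motifs. Of 32851 promoters of the same length, 22.6% held GATAA, 64.1% GGAAG and 13.8% CTTTGA, so these matches are common letters. Of the other promoters in the table, those of Wnt4 and Rspo1 held no match, Dkk2 held 1 to GGAAG, and Frzb held 2 to GGAAG and 1 to CTTTGA. A match is a description of the letters and not a bound site.

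Wnt9b, a ligand made by the endothelium of the central vein and its surroundings, was counted less often than Wnt2, with 515 healthy and 432 CCl4 UMIs. In the healthy library 97.7% of them (96.0 to 98.8%) were in endothelial-like cells at 25.0 CPM (22.9 to 27.3). Of the CCl4 UMIs 72.2% (67.7 to 76.4%) were in endothelial-like cells at 75.1 CPM (67.0 to 83.9). The source was narrow in both: 6.49% of healthy and 9.42% of CCl4 endothelial-like cells had a Wnt9b UMI, against 0.310% of healthy cholangiocyte-like cells and 0.374% of CCl4 mesenchymal-like cells (median 13847 UMIs), and every other named class with at least 100 cells was at or below 0.780 CPM. Among the clusters without a name, the CCl4 cluster with endothelial and mesenchymal markers had 44.7 CPM (35.7 to 55.3) and the haemoglobin-led CCl4 cluster 4.55 CPM (2.08 to 8.65). A cluster shared by both libraries had 4.11 CPM from 2 UMIs in its 206 healthy cells and 2.12 CPM from 1 UMI in its 326 CCl4 cells, and the others had none.

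The healthy endothelial-like cells were divided into sub-clusters, again without the 10 genes, and named from zone markers. Central-zone sinusoidal cells (958 cells, marked by Kit, Cdh13, Thbd, Lhx6 and Rab3b among others), portal-zone sinusoidal cells (675 cells, Efnb2, Msr1, Ntn4 and others), large-vessel cells (77 cells, Vwf, Plvap, Selp and Bgn) and arterial cells (190 cells, Gja5, Gja4, Sox17 and Sema3g) were found, with 9 lymphatic-like cells and 1636 cells in sub-clusters without a name. The large-vessel-like cells also carried 6 central-zone markers, including Lhx6 and Thbd, and no portal-zone marker passed in them.

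All of Wnt2, Wnt9b, Rspo3 and Dkk3 were higher in the central zone than in the portal zone. Wnt2 was 833 CPM (808 to 858) in the central and 120 CPM (109 to 131) in the portal zone, a ratio of 6.95 (6.32 to 7.65). Wnt9b was 44.5 CPM (38.9 to 50.7) against 1.25 CPM (0.407 to 2.93), a ratio of 35.5 (15.0 to 110), and Rspo3 was 352 CPM (336 to 369) against 1.505 CPM (0.552 to 3.28), a ratio of 234 (107 to 639). So Wnt2 was graded across the sinusoid, with 35.3% of portal-zone cells (median 5887 UMIs) still holding a UMI against 84.3% in the central zone (median 5161 UMIs), while Rspo3 in the portal zone lay at the level of cholangiocyte-like cells, 1.22 CPM. Wnt9b and Rspo3 were uneven within the central zone, as described below. A sub-cluster of 102 cells held 130 of its 227 Wnt9b UMIs. An Rspo3 UMI was found in 166 of 890 central-zone cells with at least 2000 UMIs. Dkk3, a divergent member of the Dkk family, was 30.01 CPM (25.4 to 35.2) against 3.26 CPM (1.74 to 5.58), a ratio of 9.20 (5.22 to 17.7). Wnt4 had a ratio of 1.41 (0.723 to 2.85). A gene entered such a comparison when both populations together held at least 20 UMIs of it, and was called when its ratio passed 2-fold, with 0 UMIs on one side taken as 3. Of the 5 members that could be compared, 4 were called higher and 0 lower, against 4.98% of 10841 genes called in either direction, 3.14% called higher and 1.84% called lower. A coarser sub-clustering gave log2 ratios of 6.16 for Rspo3 and 3.78 for Wnt9b in place of 7.87 and 5.15, and zones cut on each cell's share of central markers gave 3.68 for Wnt2 in place of 2.80.

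The large-vessel-like cells had the highest Rspo3 and Wnt9b of all populations of the healthy library. Rspo3 was 4806 CPM (4633 to 4984), 13.6 times (12.9 to 14.5) the central-zone level, and all 77 cells held a UMI of it. Wnt9b was 374 CPM (326 to 426), 8.39 times (6.95 to 10.1) the central-zone level. These 77 cells, 1.37% of the healthy cells, held 58.9% of the healthy Rspo3 UMIs (57.5 to 60.3%) and 43.7% of the Wnt9b UMIs (39.4 to 48.1%). Wnt2 was lower than in the central zone, at 476 CPM (423 to 535) and a ratio of 0.572 (0.506 to 0.645). Dkk3 had 0 UMIs in 602357, against 153 UMIs in the central zone, a level of at most 0.166 times that of the central zone with the 0 taken as 3 UMIs. Frzb, a Frizzled-related inhibitor, was the reverse, with 20 UMIs at 33.2 CPM (20.3 to 51.3) against 0 in the central zone, at least 56.4-fold higher. Of 6 members compared, 3 were called higher and 1 lower, against 21% of 10337 genes in either direction, 6.98% higher and 14% lower.

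Arterial-like cells carried the inhibitors Sfrp1 and Dkk2. Sfrp1, a secreted Frizzled-related protein, had 176 UMIs at 114 CPM (97.6 to 132) against 1 UMI in the portal zone, a ratio of 454 (80.4 to 18019). Dkk2, an inhibitor that binds LRP co-receptors, had all of its 25 healthy UMIs in arterial-like cells, at 16.2 CPM (10.5 to 23.9), at least 21.5-fold above the portal zone. Wnt2 was 9.70 CPM (5.43 to 16.0) there, 0.0809 times (0.0449 to 0.135) the portal-zone level and close to the 7.90 CPM of hepatocyte-like cells. A Dkk2 UMI was found in 15 of 190 arterial-like cells, so its level rests on few molecules. Of 4 members compared, 2 were called higher and 1 lower, against 14.3% of 10264 genes in either direction, 5.82% higher and 8.47% lower.

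**Figure D2:**
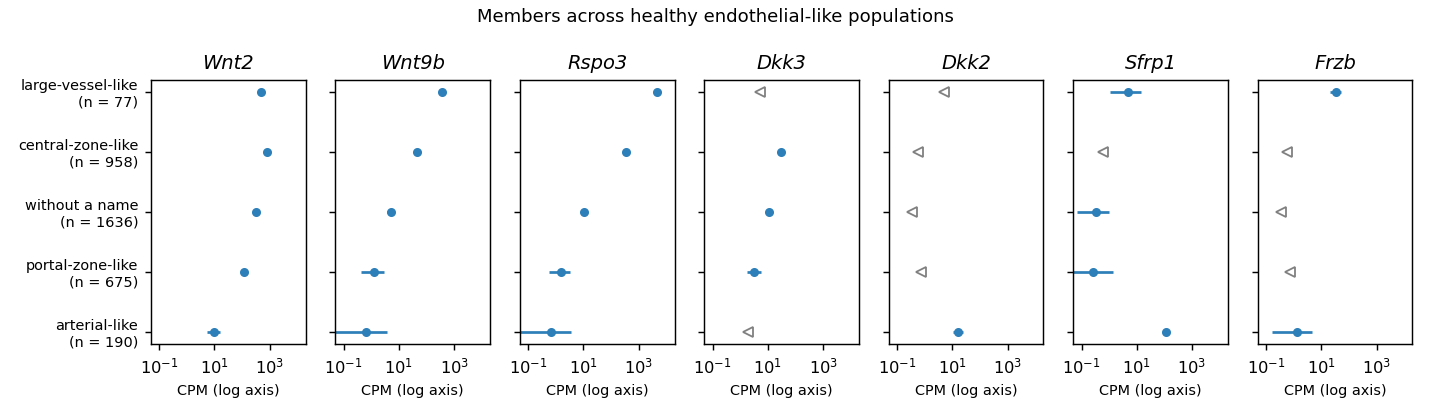
Level (CPM) of 7 of the genes in the named healthy endothelial-like populations and the sub-clusters without a name, with 95% Poisson intervals and open triangles at the level of 3 UMIs where none was counted. Wnt2 is highest in the central zone (833 CPM), Rspo3 (4806 CPM) and Wnt9b (374 CPM) in large-vessel-like cells, and Sfrp1 (114 CPM) and Dkk2 (16.2 CPM) in arterial-like cells.

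Within the central zone the same order held among its sub-clusters. Wnt2 was 510 CPM (474 to 547), 896 CPM (861 to 932) and 1207 CPM (1134 to 1285) in sub-clusters of 412, 444 and 102 cells. Rspo3 in the same sub-clusters was 15.3, 156 and 1623 CPM and Wnt9b 6.64, 31.5 and 157 CPM. The smallest of them, with 8 central-zone markers and 5 large-vessel markers such as Selp and Ramp3, thus stood between the sinusoid and the large vessel for Rspo3 and Wnt9b, and above both for Wnt2.

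A division by marker share gave the shape of the gradient. The sub-clusters named arterial-like, large-vessel-like and lymphatic-like (276 healthy and 25 CCl4 cells) did not enter it. Of the other endothelial-like cells, those with at least 10 UMIs of zone markers were ordered by the share of central markers among their central and portal marker UMIs and cut into 5 bins that each held 533 to 565 healthy cells, and 506 healthy cells with fewer marker UMIs were left out. From the portal end to the central end Wnt2 was 58.5, 156, 328, 607 and 1005 CPM, with no overlap between neighbouring intervals. Rspo3 was 1.4997, 1.10, 3.21, 30.8 and 510 CPM, so that it was near the level of other cell types in bins 1 to 3 and then stepped up. Wnt9b was 1.80, 0.828, 5.25, 8.43 and 61.4 CPM, and the intervals of bins 2 and 3 and of bins 4 and 5 did not overlap, whereas those of bins 1 and 2, 1 and 3, and 3 and 4 did. Dkk3 went from 2.10 to 33.8 CPM, and its intervals overlapped only between neighbours.

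**Figure D3:**
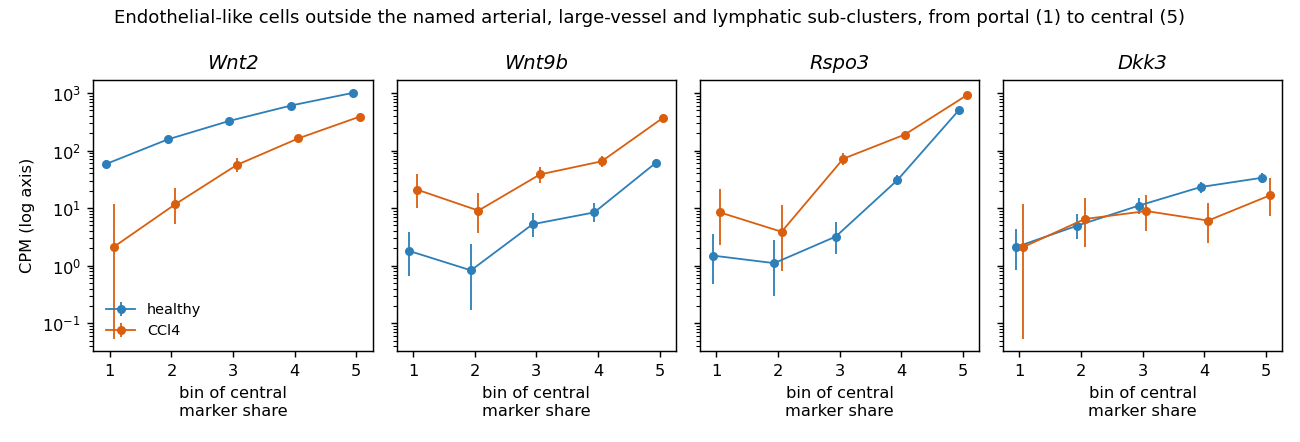
Level (CPM, log axis) of Wnt2, Wnt9b, Rspo3 and Dkk3 in endothelial-like cells, without those named arterial-like, large-vessel-like or lymphatic-like, by bin of the central-marker share (1 portal end, 5 central end), set on the healthy cells and applied to both libraries, with 95% Poisson intervals. In bin 5 Wnt2 is 1005 CPM in healthy and 391 CPM in CCl4 cells, whereas Wnt9b is 61.4 and 374 CPM and Rspo3 510 and 910 CPM, and with all endothelial-like cells entered Rspo3 is 983 and 910 CPM with overlapping intervals.

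In single central-zone cells with at least 2000 UMIs, 890 in all, an Rspo3 UMI was found in 20.9% of the 783 cells with a Wnt2 UMI and in 1.87% of the 107 without. It was found in 60.3% of the 121 cells with a Wnt9b UMI and in 12.1% of the 769 without. Cells with a Wnt2 UMI were also deeper (median 5776 against 3305 UMIs), as were those with Wnt9b (7364 against 5074), and the part of depth in these shares was not tested.

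Summed over the class, endothelial-like cells of the CCl4 library had less Wnt2 and more Wnt9b per UMI than those of the healthy library. Wnt2 was 108 against 392 CPM, a ratio of 0.275 (0.250 to 0.303), and Wnt9b 75.1 against 25.0 CPM, a ratio of 3.002 (2.60 to 3.46). Of the 312 CCl4 Wnt9b UMIs, 300 lay in a sub-cluster of 68 cells with large-vessel markers, described below. Wnt9b in cells named central-zone-like went the other way, at 3.96 CPM (0.480 to 14.3) from 2 CCl4 UMIs against 44.5 CPM (38.9 to 50.7) in healthy cells. Rspo3 was 178 CPM (166 to 192) against 239 CPM (232 to 245), a ratio of 0.747 (0.691 to 0.808) that did not pass 2-fold and turned to a log2 ratio of 0.22 when each library was clustered on its own, a setting in which that of Wnt9b fell from 1.59 to 0.95 and no longer passed 2-fold. Sfrp1 was 4 UMIs at 0.963 CPM against 183 at 9.10 CPM, a ratio of 0.106 (0.0285 to 0.275). Of the healthy UMIs 176 lay in arterial-like cells. The 25 CCl4 arterial-like cells had 0 UMIs in 166898, which is 18.0 CPM with the 0 taken as 3 UMIs. Frzb had a ratio of 6.16 (3.398 to 11.3), but its CCl4 level of 6.74 CPM did not exceed the 8.97 CPM of immune-like cells of that library, which are not known to make it. Of 9 members compared, 2 were called higher and 2 lower, against 24.1% of 12284 genes in either direction, 5.8% higher and 18.3% lower. The median log2 ratio was -0.21 over the 9 members and -0.32 over all genes tested. The summed mesenchymal markers in these endothelial-like cells were 158 CPM in the healthy and 705 CPM in the CCl4 library, with 0 of 18 markers at 0 in both, and their part in these ratios was not tested.

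At a matched share of central markers Wnt2 was lower in the CCl4 cells, while the direction of Wnt9b and Rspo3 depended on how cells with large-vessel markers were treated. In bin 5 (565 healthy and 63 CCl4 cells) Wnt2 was 1005 CPM (971 to 1039) in healthy and 391 CPM (337 to 451) in CCl4 cells, and in bin 4 it was 607 and 163 CPM. In bin 5 Wnt9b was 61.4 CPM (53.3 to 70.3) and 374 CPM (321 to 433), and Rspo3 was 510 CPM (486 to 534) and 910 CPM (827 to 1000). These bins did not hold like cells, since the 77 healthy large-vessel-like cells were left out by their name and an unnamed CCl4 sub-cluster with 6 large-vessel markers, described next, stayed in. With all endothelial-like cells entered, healthy Rspo3 in bin 5 was 983 CPM (951 to 1015), with an interval that overlapped that of the CCl4 cells, and healthy Wnt9b was 90.8 CPM (81.4 to 101). With every sub-cluster of 3 or more large-vessel markers left out of both libraries (475 healthy and 36 CCl4 cells in bin 5), Wnt9b was 32.6 CPM (26.1 to 40.2) and 38.2 CPM (17.5 to 72.6) and Rspo3 was 167 CPM (152 to 183) and 102 CPM (65.3 to 152), while Wnt2 was 944 CPM (908 to 982) and 221 CPM (165 to 290). Wnt2 was thus lower in the CCl4 cells in bins 4 and 5 under all 3 treatments, and no direction is given for Wnt9b and Rspo3. The markers themselves may differ between the libraries.

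A sub-cluster of 68 CCl4 endothelial-like cells led by Nts, Lhx6 and Thy1 held most of the Wnt9b and Rspo3 UMIs of the class. It had 7 central-zone and 6 large-vessel markers and was left without a name. These 68 cells were among 626 CCl4 endothelial-like cells, and the 77 large-vessel-like cells among 3545 healthy ones, and the part of this difference in the Wnt9b and Rspo3 ratios of the class was not tested. Its Wnt9b was 481 CPM (428 to 539), with 300 of the 312 endothelial-like UMIs, and its Rspo3 was 1124 CPM (1043 to 1211), with 701 of 741 UMIs. Its Wnt2 was 396 CPM (348 to 449). The 77 cells named central-zone-like had 141 CPM of Wnt2 (110 to 178) and 3.96 CPM of Wnt9b. They had 0 UMIs of Rspo3 in 504506, which is 5.95 CPM with the 0 taken as 3 UMIs. Portal-zone-like cells (135 cells) had 19.5 CPM of Wnt2 (11.9 to 30.1) and 5.85 CPM of Rspo3 (2.15 to 12.7). Dkk2 again lay with arterial-like cells, 9 of 11 UMIs in 25 cells at 53.9 CPM (24.7 to 102). The 9 UMIs came from 3 cells, and the share of cells with a UMI was 12.0% (2.55 to 31.2%) against 7.89% (4.49 to 12.7%) of healthy arterial-like cells, with overlapping intervals.

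Wnt4, a ligand best known from kidney and reproductive tract development, came from cholangiocyte-like cells in the healthy library. They held 89.8% of its 5759 UMIs (89.0 to 90.6%) at 287 CPM (279 to 295), and 88.7% of them had a UMI against 2.76% of endothelial-like cells. Mesothelial-like cells followed at 81.4 CPM (72.6 to 90.9), and endothelial-like cells at 5.22 CPM (4.27 to 6.32) and hepatocyte-like cells at 4.83 CPM (2.41 to 8.64) could not be told apart. In the CCl4 library, with 23 cholangiocyte-like cells, Wnt4 had 12654 UMIs. Mesenchymal-like cells held 41.5% of them at 117 CPM (114 to 120), the Serpinb2-led cluster 31.9% at 326 CPM (316 to 336), and mesothelial-like cells 17.9% at 137 CPM (131 to 143). The CCl4 cholangiocyte-like cells had 156 CPM (107 to 220) from 32 UMIs, a ratio of 0.544 (0.372 to 0.769) to the healthy ones. In that comparison 2 members entered, 0 were called higher and 1 lower (Wnt5a, from 1 CCl4 UMI), against 20.7% of 10533 genes in either direction, 6.69% higher and 14% lower.

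Wnt5a, which acts mainly through beta-catenin-independent routes, had 588 UMIs in the healthy and 9744 in the CCl4 library. In the healthy library 54.6% (50.5 to 58.7%) were in cholangiocyte-like cells at 17.8 CPM (15.9 to 19.9) and 41.8% (37.8 to 45.9%) in mesothelial-like cells at 64.0 CPM (56.2 to 72.5). In the CCl4 library 53.7% (52.7 to 54.7%) were in mesenchymal-like cells at 117 CPM (113 to 120) and 39.6% (38.6 to 40.6%) in mesothelial-like cells at 233 CPM (226 to 241). Mesothelial-like cells thus had the highest level among the named classes in both libraries. Healthy endothelial-like cells had 5 UMIs, or 0.249 CPM, the lowest level among classes with at least 100 cells, and CCl4 immune-like cells had 14.2 CPM (9.39 to 20.7).

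Rspo1, an R-spondin that amplifies Wnt signals, came from mesothelial-like cells in both libraries. These cells, the lining of the liver surface, were 4.21% of the healthy library and held 98.9% of its UMIs (98.5 to 99.2%) at 1117 CPM (1084 to 1151). A UMI was found in 97.9% of them (median 18282 UMIs) and in 0.697% of cholangiocyte-like cells, and after thinning in 87.4% and 0.114%. Mesothelial-like cells of the CCl4 library held 80.8% of the UMIs (79.9 to 81.8%) at 323 CPM (314 to 331), and the Serpinb2-led cluster held 15.1% at 80.4 CPM (75.5 to 85.6). Endothelial-like and mesenchymal-like cells were at or below 1.39 CPM in the libraries in which each was abundant.

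The mesothelial-like cells of the CCl4 library differed from the healthy ones in most of these genes. Rspo1 was 323 against 1117 CPM, a ratio of 0.289 (0.277 to 0.301), while Wnt5a was 233 against 64.0 CPM, a ratio of 3.65 (3.21 to 4.17). Wnt4 was 137 against 81.4 CPM, a ratio of 1.68 (1.49 to 1.90). Dkk3 was 26.1 against 5.72 CPM, a ratio of 4.56 (2.97 to 7.35), and Sfrp1 was 7.93 against 30.7 CPM, a ratio of 0.258 (0.200 to 0.334). So one of the R-spondins and one of the Frizzled-related inhibitors were lower in the CCl4 cells, and 1 ligand and 1 Dkk family member were higher. Rspo3, at 7.87 CPM, and Frzb, at 2.84 CPM, were also called higher, but neither exceeded the level in CCl4 immune-like cells, 11.1 and 8.97 CPM. Of 8 members compared, 4 were called higher and 2 lower, against 25.3% of 12499 genes in either direction, 12.8% higher and 12.5% lower. Different clusters held these cells, the healthy ones a cluster led by Myl7, Prph and Slc26a3 and the CCl4 ones a cluster led by Prg4, Adra2a and Cemip, and their summed mesothelial markers were 27081 and 16019 CPM.

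**Figure D4:**
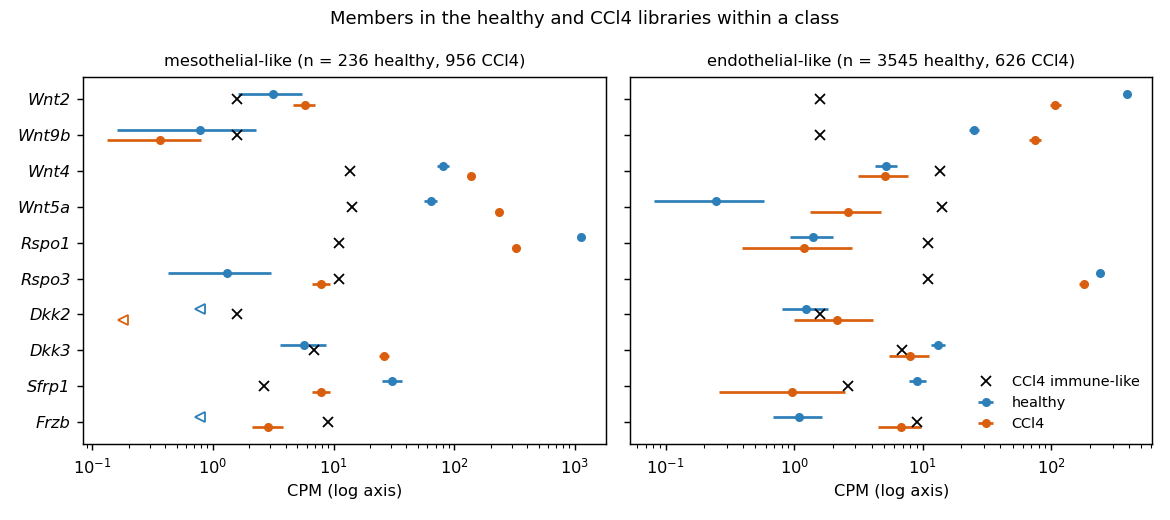
Level (CPM, with 95% Poisson intervals) of the 10 genes in mesothelial-like and endothelial-like cells, healthy in blue and CCl4 in orange, with black crosses for CCl4 immune-like cells. Rspo1 in mesothelial-like cells is 1117 and 323 CPM and Wnt2 in endothelial-like cells 392 and 108 CPM, while Wnt5a in mesothelial-like cells is 64.0 and 233 CPM.

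The Serpinb2-led cluster, 611 cells found in the CCl4 library alone, had another balance of the same ligands. Compared with the mesothelial-like cells of that library, its Wnt4 was 2.38 times as high (2.26 to 2.51) and its Wnt2 3.54 times (2.78 to 4.52). Its Wnt5a was 22.7 against 233 CPM, a ratio of 0.0974 (0.0860 to 0.110), and its Rspo1 80.4 against 323 CPM, a ratio of 0.249 (0.233 to 0.267). Of 8 members compared, 3 were called higher and 2 lower, against 22.7% of 12881 genes in either direction, 7.46% higher and 15.2% lower. A cycling cluster of 73 cells, led by Ube2c and Birc5, had 323 CPM of Wnt4 (300 to 346), 73.9 CPM of Rspo1 (63.4 to 85.7) and 23.9 CPM of Wnt2 (18.1 to 31.0), with intervals that overlapped those of the Serpinb2-led cluster. Its Wnt5a was higher, at 57.1 CPM (47.9 to 67.6), and its Dkk3 and Sfrp1 were lower, at 22.3 CPM (16.7 to 29.1) against 38.6 CPM (35.2 to 42.3) and 2.52 CPM (0.925 to 5.49) against 13.2 CPM (11.3 to 15.4), without overlap.

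Rspo3 had 4913 UMIs in the healthy library, 97.7% of them (97.2 to 98.1%) in endothelial-like cells, and 18923 in the CCl4 library, 87.8% of them (87.3 to 88.3%) in mesenchymal-like cells and 3.92% (3.64 to 4.20%) in endothelial-like cells. The CCl4 mesenchymal-like cells had 370 CPM (365 to 376), and 77.7% of them had a UMI against 3.17% of immune-like cells (median 3784 UMIs), or 42.6% and 1.31% after thinning. The 13 healthy mesenchymal-like cells had 328 CPM, from 66 UMIs, and no comparison was made on so few cells. Their summed mesenchymal markers were 18130 CPM, beside 16575 CPM of cholangiocyte and 5199 CPM of hepatocyte markers. Their name is therefore uncertain, and the source of their UMIs was not tested. The numbers of mesenchymal-like cells in the libraries, 13 and 3207, are also set by the preparation, so a change of the main source of Rspo3 in the liver cannot be told apart from a change in the cells recovered.

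Among the CCl4 mesenchymal-like cells, Rspo3 was highest in stellate-like cells, the pericytes of the sinusoid, marked by Lrat, Reln, Colec11 and Rgs5. It was 711 CPM (696 to 727) in 789 stellate-like cells, 368 CPM (350 to 386) in 254 smooth muscle-like cells and 126 CPM (119 to 133) in 889 portal fibroblast-like cells, with no overlap between neighbours. The ratio of stellate-like to portal fibroblast-like cells was 5.64 (5.32 to 5.98). Frzb followed the same order, at 218 CPM (209 to 227), 166 CPM (154 to 178) and 111 CPM (105 to 117), a ratio of 1.97 (1.83 to 2.11) that stayed below 2-fold.

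Wnt4, Wnt5a, Dkk3 and Sfrp1 had the opposite order. Wnt4 was 44.5 CPM (40.8 to 48.6) in stellate-like and 197 CPM (189 to 206) in portal fibroblast-like cells, a ratio of 0.226 (0.204 to 0.249). Wnt5a was 38.8 CPM (35.3 to 42.6) against 200 CPM (192 to 209), a ratio of 0.194 (0.174 to 0.215). Dkk3 was 96.3 CPM (90.7 to 102) against 211 CPM (202 to 220), a ratio of 0.457 (0.424 to 0.491), and Sfrp1 was 2.02 CPM (1.28 to 3.03) against 54.0 CPM (49.7 to 58.7), a ratio of 0.0374 (0.0235 to 0.0567). In summed levels stellate-like cells thus had more Rspo3 and Frzb, and portal fibroblast-like cells more Wnt4, Wnt5a, Dkk3 and Sfrp1. Frzb and Dkk3 were well counted in both. Smooth muscle-like cells lay near the stellate-like cells, with 62.0 CPM of Wnt4 (55.0 to 69.7), 45.0 CPM of Wnt5a (39.1 to 51.6) and 76.9 CPM of Dkk3 (69.1 to 85.4). Of 7 members compared, 1 was called higher and 4 lower in stellate-like cells, against 15.2% of 12296 genes in either direction, 5.07% higher and 10.2% lower.

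The 15 mesenchymal sub-clusters of the CCl4 library divide the same cells further, so they are no separate check of this split. The 3 stellate-like sub-clusters had 703 to 715 CPM of Rspo3 and 16.3 to 60.7 CPM of Wnt5a, and the portal fibroblast-like ones had 74.3 to 251 CPM of Rspo3 and 117 to 228 CPM of Wnt5a. The largest sub-cluster, 457 cells with 7 portal fibroblast markers but without one of them among its leading genes (Rgs16, Nr4a1, Thbs4 and others) and left without a name, had 91.5 CPM of Rspo3, 188 CPM of Wnt4 and 225 CPM of Wnt5a. The next largest unnamed sub-cluster, 368 cells, had 70.7 CPM of Wnt5a, between the ranges of the named ones, and 184 CPM of Frzb. An unnamed sub-cluster of 56 cells had 136 CPM of Wnt5a and 142 CPM of Sfrp1, above every portal fibroblast-like sub-cluster for Sfrp1. One portal fibroblast-like sub-cluster of 143 cells had a low median of 4202 UMIs and an intermediate Rspo3 of 251 CPM. In portal fibroblast-like cells with at least 2000 UMIs, a Wnt5a UMI was found in 78.6% of cells with a Wnt4 UMI (median 12727 UMIs). It was found in 63.3% of those without (median 9994 UMIs), and the former were the deeper cells. In stellate-like cells these shares were 34.2% and 32.8%. In portal fibroblast-like cells a Frzb UMI was found in 66.3% of cells with an Rspo3 UMI and in 61.9% of those without. A Wnt5a UMI was found in 72.7% and 75.3% of the same groups.

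**Figure D5:**
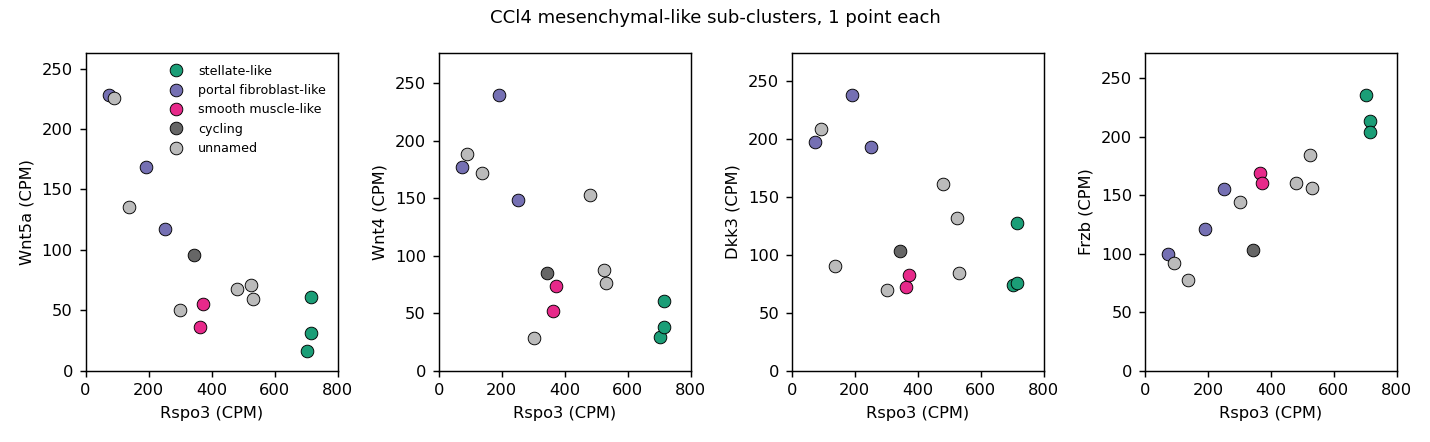
Level (CPM) of Wnt5a, Wnt4, Dkk3 and Frzb against that of Rspo3 in the 15 mesenchymal-like sub-clusters of the CCl4 library, 1 point per sub-cluster, coloured by name. The stellate-like points lie at 703 to 715 CPM of Rspo3 with low Wnt5a (16.3 to 60.7 CPM), and the portal fibroblast-like points at 74.3 to 251 CPM of Rspo3 with 117 to 228 CPM of Wnt5a.

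Dkk3, Sfrp1 and Frzb were few in the healthy library and mainly mesenchymal in the CCl4 library, and Dkk2 was arterial in both. Dkk3 had 308 healthy UMIs, 86.4% of them (82.0 to 89.99%) in endothelial-like cells at 13.2 CPM (11.7 to 14.9), and 7810 CCl4 UMIs, 82.4% of them (81.6 to 83.3%) in mesenchymal-like cells at 143 CPM (140 to 147). Frzb had 37 healthy UMIs, 20 of them in large-vessel-like cells and 13 in the few mesenchymal-like cells, which also carried cholangiocyte markers. It had 7470 CCl4 UMIs, 90.9% of them (90.3 to 91.6%) in mesenchymal-like cells at 151 CPM (148 to 155). Sfrp1 had 369 healthy UMIs, 47.7% of them (42.5 to 52.9%) in arterial-like and 32.0% (27.2 to 37.0%) in mesothelial-like cells, and 1687 CCl4 UMIs, 79.7% of them (77.7 to 81.6%) in mesenchymal-like cells at 29.9 CPM (28.4 to 31.6). Dkk2 was the rarest, with 25 healthy and 11 CCl4 UMIs.

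In the CCl4 library, UMIs of the mesenchymal genes also appeared outside the mesenchymal-like class, in immune-like cells and in a cluster whose cell type is not known. The haemoglobin-led unnamed cluster of 877 cells, with a median of 1401 UMIs, had 238 CPM of Rspo3 (217 to 261), 110 CPM of Dkk3 (95.7 to 125) and 97.2 CPM of Frzb (83.9 to 112), against mesenchymal-like levels of 370, 143 and 151 CPM, and the intervals did not overlap. Immune-like cells had 11.1, 6.86 and 8.97 CPM of the same genes. The source of these UMIs was not tested.

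Across 28 populations with at least 50 cells, the gene whose level (log2(CPM + 1)) was most like that of each member was found among 9535 genes, as a description over populations that share libraries and depth. Wnt2 was most like Fam20a (Pearson r = 0.91), Adgrf5 and Cyp26b1, and Wnt9b most like the transcription factor gene Lhx6 (r = 0.95), Cdh13 and Pgm5, of which Lhx6 and Cdh13 were also zone markers. Rspo1 was most like the mesothelial markers Upk3b (r = 0.95) and Lrrn4 and the gene Nkain4. Wnt4 was most like Bicc1 (r = 0.92), Wdr35 and Sema5a, and Wnt5a most like Tgfb3 (r = 0.93), Plce1 and Casc4. Rspo3 had no such close match, with Ntn1 (r = 0.83), Samd5 and Art4, and it had both endothelial and mesenchymal sources. Frzb was most like Robo2 (r = 0.95), Scube1 and Ctsk, Dkk3 most like Clmp (r = 0.91), Mrvi1 and Thbs2, and Sfrp1 most like Mgp (r = 0.83), Fxyd6 and Eln. Dkk2 was most like Gja5 (r = 0.86), Nrg1 and Ly6c1, but Spearman's rho with Gja5 was 0.29, and the gene was at 0 in most populations. Among the members themselves Wnt4 and Wnt5a (r = 0.82), Wnt2 and Wnt9b (r = 0.72), Dkk3 and Frzb (r = 0.70) and Rspo3 and Frzb (r = 0.70) were the most alike.

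The other genes of the pathway were taken from lists, with up to 3 genes of the most UMIs named for each. Of 15 other Wnt ligands, 8 had at least 20 UMIs over both libraries, and the most abundant were Wnt9a, Wnt5b and Wnt7b. In mesothelial-like cells Wnt9a was 58.0 CPM in the healthy and 13.3 CPM in the CCl4 library and Wnt7b 32.2 and 0.424 CPM, and of 5 such ligands compared there 4 were called lower and 0 higher, against 12.5% of all genes lower and 12.8% higher. The other R-spondins, Rspo2 and Rspo4, had under 20 UMIs in all, so Rspo1 and Rspo3 were the R-spondins of these libraries. Of 12 other secreted inhibitors, 8 had at least 20 UMIs. Sfrp2 in mesothelial-like cells was 16.9 CPM in the healthy and 291 CPM in the CCl4 library, a ratio of 17.2 (13.5 to 22.4), the opposite direction to Sfrp1, and Igfbp4, a growth factor binding protein that can block Wnt receptors, was 193 and 580 CPM there. Sfrp4 was 13.5 and 1.69 CPM.

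Genes needed to secrete and to receive the ligands were counted in the same classes, at unlike levels. Wls, the carrier that all Wnt ligands need to leave the cell, was 156 CPM in healthy endothelial-like, 239 CPM in healthy mesothelial-like and 210 CPM in CCl4 mesenchymal-like cells. In healthy cholangiocyte-like cells, the main healthy source of Wnt4, Wls was 29.2 CPM, below the 57.1 CPM of CCl4 macrophage or monocyte-like cells. Porcn, the enzyme that attaches the lipid, was 10.9 CPM in healthy cholangiocyte-like cells, its highest healthy class. Neither Wls nor Porcn passed 2-fold between the libraries in mesothelial-like cells. Porcn in endothelial-like cells was 7.81 CPM in the healthy and 1.68 CPM in the CCl4 library, a ratio of 0.216 (0.0853 to 0.455) from 7 CCl4 UMIs. All 10 Frizzled genes had at least 20 UMIs, and Fzd4 was the main one of healthy endothelial-like cells at 191 CPM. In mesothelial-like cells 3 of 8 Frizzled genes compared were called lower in the CCl4 library, with Fzd4 at 167 and 42.8 CPM and Fzd2 at 146 and 36.2 CPM, and 0 were called higher, against 12.5% of all genes lower and 12.8% higher. Of the co-receptors 9 of 10 listed names were in the matrices, and Ryk, the most abundant of them, was 255 CPM in CCl4 mesenchymal-like cells. Lgr4, the most abundant R-spondin receptor, was 36.3 CPM in cholangiocyte-like and 34.7 CPM in hepatocyte-like cells of the healthy library and 4.28 CPM in endothelial-like cells.

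Genes that beta-catenin can activate were called in both directions. Of 16 listed, 10 could be compared in endothelial-like cells, with 3 called higher and 3 lower in the CCl4 library, against 5.8% of all genes higher and 18.3% lower. In mesothelial-like cells 9 could be compared, with 2 higher and 3 lower, against 12.8% and 12.5% of all genes. Ccnd1, the cell cycle regulator cyclin D1, was 136 and 791 CPM in endothelial-like cells, a ratio of 5.81 (5.52 to 6.11), and 52.8 and 19.1 CPM in mesothelial-like cells. Axin2, the most used readout of the pathway and named here after its values were seen, was 1.64 and 4.57 CPM in endothelial-like and 4.94 and 14.3 CPM in mesothelial-like cells, and the CCl4 values rest on 19 and 237 UMIs. Glul, glutamine synthetase, was lower in the central than in the portal zone of healthy endothelial-like cells, at 173 and 455 CPM, the opposite of Wnt2. In healthy hepatocyte-like cells, the class that would receive the central signals, Oat, an ornithine aminotransferase of the pericentral programme, was 221 CPM. It was 476 CPM in healthy mesothelial-like cells, and Glul was 65.4 CPM in hepatocyte-like against 294 CPM in endothelial-like cells, so neither gene singled out hepatocyte-like cells. Of 14 listed genes with enough UMIs in the healthy library, 7 were highest in hepatocyte-like cells. The others were highest in cholangiocyte-like (3), endothelial-like (2) or mesothelial-like cells (2). Among the 7, and named here after their values were seen, Cyp2e1 was 2043 CPM in hepatocyte-like against 27.4 CPM in endothelial-like cells. Cyp1a2 was 383 against 2.74 CPM and Lect2 173 against 2.98 CPM. The CCl4 library held too few hepatocyte-like cells to compare.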

How the data were processed

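Liver cells of healthy and CCl4-injured mice were profiled in 1 library each. The authors deposited raw counts, whole UMIs of each gene in each listed barcode. Per the file headers Cell Ranger 3.1.0 wrote the healthy and Cell Ranger 6.0.1 the CCl4 matrix. The submitters' processing notes name fastp and featureCounts 1.6.2, and the study's methods name a human genome build, whereas the deposited gene identifiers are mouse Ensembl identifiers, so the build of the counts is uncertain and no coordinates were taken from it. Software version, library and condition cannot be told apart.

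Genes on both lists were matched by Ensembl identifier. Totals were 51122846 UMIs in 6297 healthy cells and 97611831 UMIs in 8460 CCl4 cells. A cell needed 500 UMIs and 200 genes or more, with mitochondrial UMIs no more than 30% of its total (418 healthy and 642 CCl4 cells removed), and the highest Scrublet doublet scores, 0.8% per 1000 cells, were removed (277 and 487 cells). One joint clustering was made, with no batch integration (2000 variable genes without the 10 members and the Wnt pathway lists, 10 principal components, 20 neighbours, Leiden resolution 1, seed 1). A cluster was named when at least 3 markers of a class had at least 2 times (within classes 1.5 times) the mean CPM of the other cells and a UMI in at least 10% of cells. It stayed unnamed when markers of another class led its 10 leading genes, or when its UMI count was low without a leading marker. In the joint clustering it also stayed unnamed when a second class with a leading gene had at least 3 such markers and at least 0.5 times as many as the first. The study's own names may differ from these. Clusters of neutrophil-like, lymphocyte-like (T and NK) and macrophage or monocyte-like cells are grouped as immune-like.

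UMIs were summed per population and given as CPM with exact Poisson intervals, ratios with exact conditional binomial intervals and shares with Clopper-Pearson intervals. A ratio counts as called past 2-fold, for genes with at least 20 UMIs in both populations together. The count script was tested on simulated data. Named were all members, up to 3 genes of each pathway list by UMIs, and for each member the 3 genes with the highest Pearson r of log2(CPM + 1) over populations of at least 50 cells, among genes with a mean of at least 10 CPM. The members, gene lists and markers were chosen with earlier results of these data known. Promoter sequences were from RefSeq (GRCm38.p6). The steps ran in scanpy 1.11.5 with igraph 0.11.9 under python 3.11.15, with statistics from scipy 1.17.1.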

Additional observations from a re-analysis of the deposited data

How the results depend on the processing

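No paired analysis was possible because each condition was 1 library. For 15 main results under 140 alternatives, 100 stayed within their interval, 39 left it without a change of sign and 1 reversed. The 39 include ratios that shrank, and also levels and shares, which have no sign and so cannot count as reversed. The reversed result was the log2 ratio of Rspo3 (CCl4 over healthy endothelial-like cells), which went from -0.42 to 0.22 with each library clustered on its own, and the cause was not tested. Among 64 other values under 207 alternatives, 96 stayed within their interval, 106 moved and 5 reversed, and most of those that moved were shares of cells after thinning. The central-zone ratios of Wnt2, Wnt9b and Rspo3 stayed above 2-fold under every alternative run on them.

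The log2 ratio of Wnt2 between central and portal zone, 2.80 as reported, was 2.24 with sub-clustering at resolution 0.5, 2.38 at Leiden resolution 2, 2.46 with every cell weighing the same, 3.003 with a mitochondrial limit of 10%, 2.999 without doublet removal, 3.04 with a minimum of 1000 UMIs, 3.37 without a mitochondrial limit and 3.68 with zones cut on each cell's share of central markers. That of Wnt9b (5.15) was 3.78 with sub-clustering at resolution 0.5 and 3.59 with 30 principal components, and that of Rspo3 (7.87) was 6.16 and 6.37.

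By bin of the central marker share, 2 alternatives chosen after seeing the data gave the 5 reversals. With all endothelial-like cells entered, the CCl4 over healthy log2 ratio of Rspo3 went from 2.62 to -0.44 in bin 4 and from 0.84 to -0.11 in bin 5. Without sub-clusters of 3 or more large-vessel markers it was -2.17 and -0.71, and that of Wnt9b in bin 4 went from 2.95 to -1.48, from 2 CCl4 UMIs. Both change which cells with large-vessel markers are entered.

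In endothelial-like cells the CCl4 over healthy log2 ratio of Wnt2 (-1.86) was -2.40 with each library clustered on its own, -2.04 with every cell weighing the same and -1.63 when scaled without the 50 most abundant genes. In these settings that of Wnt9b (1.59) was 0.95, 1.153 and 1.82, so it no longer passed 2-fold with separate clustering, and that of Rspo3 was -0.19 in the last of them. In mesothelial-like cells Wnt4 (0.75) was 0.51 with every cell weighing the same and 0.57 without doublet removal, and Rspo1 (-1.79) was -1.65 without the 50 most abundant genes. That scaling raised the CPM of Rspo1 in healthy mesothelial-like cells to 1386, of Rspo3 in CCl4 mesenchymal-like cells to 497 and of Wnt4 in healthy cholangiocyte-like cells to 366, a level that was 295 with every cell weighing the same and 277 with a mitochondrial limit of 10%.

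With each library clustered on its own, Rspo3 in CCl4 mesenchymal-like cells was 382 CPM with 76.2% of its UMIs there, 96.6% of the healthy Wnt2 UMIs were endothelial-like, and no cluster was named mesothelial-like, so that 0% of the Rspo1 UMIs was assigned and the mesothelial values could not be had. The mesenchymal-like share of Rspo3 (87.8%) was 86.5% with a mitochondrial limit of 10%, 87.0% without one, 90.1% with a minimum of 1000 UMIs, 85.8% without doublet removal, 87.0% with 30 principal components and 87.2% at Leiden resolution 2. Without doublet removal the Wnt2 share was 95.4% and the Rspo1 share 98.0%, and the endothelial-like comparison could not be had, since fewer than 20 CCl4 cells were named. Leaving out the barcodes found in both libraries, an alternative chosen after seeing the data, left all 27 values it was run on within their intervals.

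Depth limits the rare members: Dkk2 (25 and 11 UMIs), healthy Frzb (37 UMIs) and the 23 CCl4 cholangiocyte-like cells rest on few molecules, and with 1 library per condition no difference between conditions could be set against the spread between animals.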

Other observations

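A cluster of 91 CCl4 cells with a median of 20929 UMIs carried markers of both endothelial and mesenchymal cells and stayed without a name. It held most of the signals of both at once, with 461 CPM of Rspo3 (431 to 493), 158 CPM of Frzb (140 to 177), 84.7 CPM of Wnt2 (72.1 to 98.8), 70.5 CPM of Dkk3 (59.0 to 83.4) and 44.7 CPM of Wnt9b (35.7 to 55.3). Its median was above the 6507.5 UMIs of endothelial-like and the 13847 UMIs of mesenchymal-like cells of that library, and whether its barcodes held 2 cells each was not tested.

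A low-depth cluster of 143 healthy cells (median 1937 UMIs) led by Dmbt1, Hnf4g and Kif12 had 311 CPM of Wnt4 (248 to 385), an interval that held the 287 CPM of cholangiocyte-like cells, and it stayed without a name because of its low UMI count. The haemoglobin-led cluster also held 27 healthy cells, with a median of 9591 UMIs against 1401 UMIs in its 877 CCl4 cells. These healthy cells had 71.4 CPM of Sfrp1 (52.3 to 95.2).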
